A study of Caenorhabditis elegans with 2 samples.

Results

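Guanylyl cyclase genes were compared between young adult Caenorhabditis elegans raised on 2 bacterial diets. The set was chosen by name and holds every gene called gcy with a number, together with odr-1 and daf-11. It contains 34 genes, of which 32 had a probe on the array, among 19807 genes with a probe in all. By textbook classification 27 of them encode receptor guanylyl cyclases of the membrane, and 7 (gcy-31 to gcy-37) encode soluble cyclases, so the set is wider than the receptors alone. The gene table lists gcy-2 as a pseudogene. No probe was named here for gcy-29 or gcy-35, and they are not analysed.

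Both groups were N2, the wild-type laboratory strain, and the labels name no allele or agent beside the food. From hatching to young adulthood, at 20 °C, one group ate the standard bacterial lawn, Escherichia coli OP50, and the other a soil isolate of the Gram-positive Lysinibacillus sphaericus. The arrays are called the OP50 array and the L. sphaericus array. Total RNA of whole bodies was labelled with Cy3 and hybridised to 1 array per diet. With 1 array per diet there is no replicate, so no test between the diets was run, no p-value is given, and the spread between worm populations is unknown.

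Guanylyl cyclases make the second messenger cGMP. In the sensory neurons of C. elegans, receptor guanylyl cyclases sit mostly in the cilia, where they detect salts, temperature or carbon dioxide themselves or act downstream of G protein-coupled odour receptors, and the cGMP opens channels made of TAX-2 and TAX-4. Soluble cyclases bind oxygen through a haem group and serve oxygen sensing. Many of these genes are expressed in 1 or a few kinds of sensory neuron, and the salt-sensing ASE neurons use different cyclases on the left and the right side.

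The OP50 array had a median processed signal of 245 and the L. sphaericus array of 367, and 76.1% and 75.5% of 43803 spots were well above background. Each array was divided by its 75th percentile (1440 and 3368 over probes), and a scaled signal below is the intensity with that percentile set to 1000. Differences are log2 values, L. sphaericus minus OP50, and a gene counts as measured when a probe was well above background on both arrays. The lowest signals well above background were 15.7 and 25.8, which are 10.9 and 7.65 as scaled signals. Without any scaling every difference is 1.23 higher, so the range of a member's difference over 9 ways of scaling is given beside it.

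Most of the cyclase genes that could be measured were lower on the L. sphaericus array. Whole worms were measured, so a smaller share of neurons in the total RNA and less RNA of a gene per neuron cannot be told apart. Of 23 measured members, 14 were at least 2-fold lower and 1, gcy-6, at least 2-fold higher, against 32.6% of 15301 measured genes lower and 22.1% higher. The median over the members was −1.15, and the median over all measured genes was −0.20. All 23 members were dimmer than the median measured gene, and the gap of −0.95 between the medians depended on signal level. It was −0.47 after loess centring, which removes the trend with signal level, and −2.94 over the 5 members with bright probes. A further 5 members (gcy-2, gcy-3, gcy-4, gcy-17 and gcy-25) were well above background on the OP50 array only, as were 4.21% of all genes with a probe. For 0 of the 32 the L. sphaericus signal alone was well above background, against 4.08% of all genes with a probe. The remaining 4 (gcy-1, gcy-7, gcy-21 and odr-1) were not well above background on either array and have no difference. By class, 10 of 17 measured receptor cyclases passed 2-fold downward (with a median of −1.13, −1.33 to 0.093 over the scalings) and 4 of 6 soluble ones (median −1.56, −1.76 to −0.33).

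The count of lower genes depended on the scaling. Without scaling, 6 members were at least 2-fold lower and 6 at least 2-fold higher, against 11.6% and 50.6% of all measured genes. The signal as deposited was lower on the brighter L. sphaericus array for 11 of the 23 members, against 28.2% of all measured genes. These 11 were gcy-11, gcy-12, gcy-13, gcy-14, gcy-15, gcy-19, gcy-20, gcy-22, gcy-32, gcy-36 and gcy-37, and they lay below 0 under all 9 scalings and with normexp, another background correction. The sign of 8 members turned with the scaling. The other 4 (gcy-5, gcy-6, gcy-8 and gcy-9) lay above 0 under all 9 scalings but below 0 with normexp, so no member was above 0 under every setting. Normexp added an offset of 50 to the signals of both arrays before scaling, which draws the differences of dim genes to values below 0. For dim members its sign therefore cannot show the direction of a difference.

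**Figure D1:**
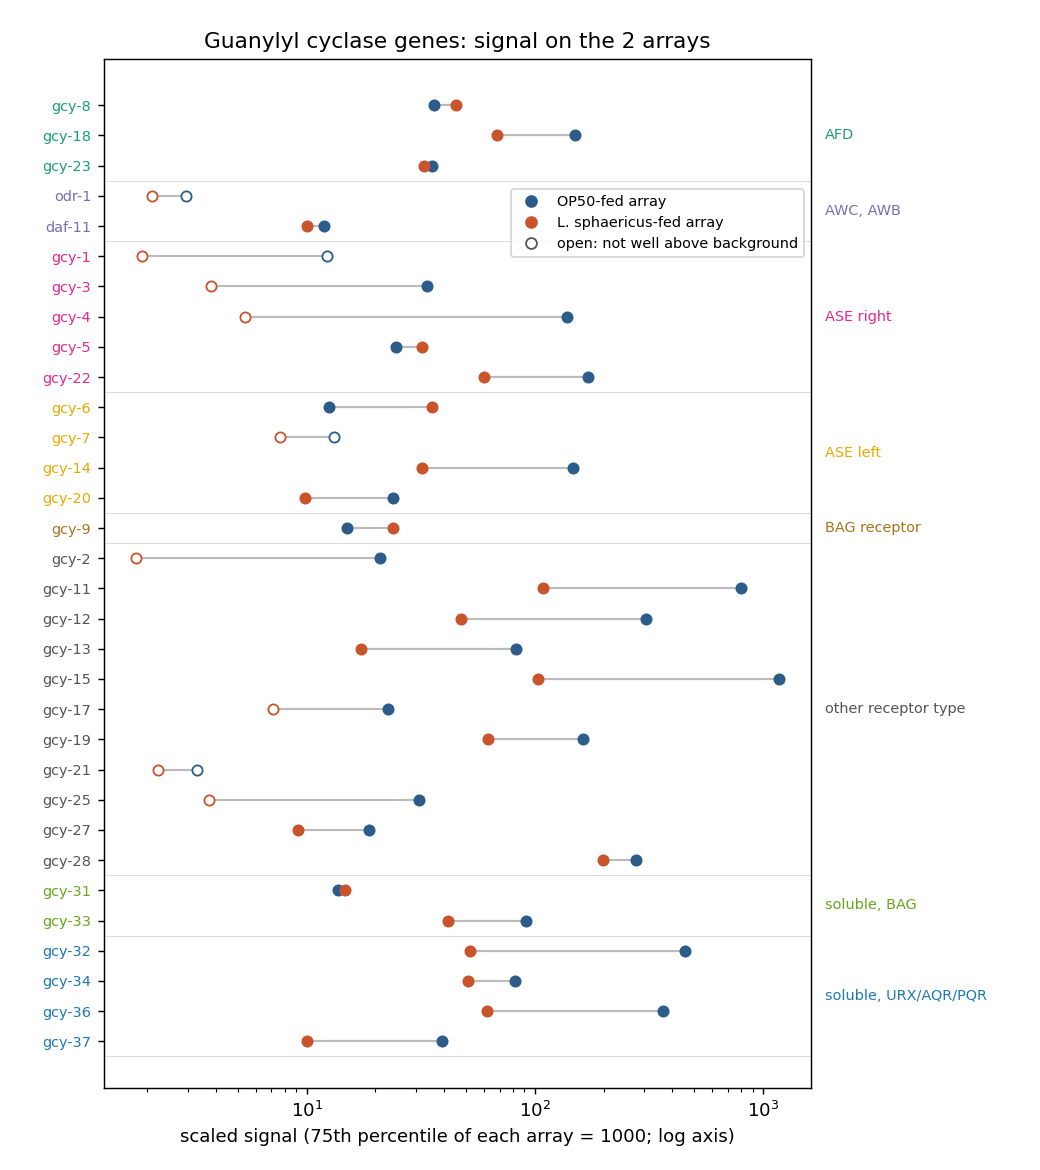
Scaled signal (75th percentile of each array set to 1000, log axis) of the 32 cyclase genes with a probe, as the median over the probes used, on the OP50 (blue) and the L. sphaericus (orange) array, grouped by neuron or class. Open circles are not well above background. Among genes well above background on both arrays the widest gap is that of gcy-15 (1177 to 103), and among the open circles that of gcy-4 (138 to 5.37).

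In the right ASE neuron, which senses salts, the cyclase genes differed from each other. The scaled signal of gcy-4 (ZK970.5) was 138 on the OP50 array and 5.37 on the L. sphaericus array, where it was not well above background. Against the lowest signal well above background on that array, gcy-4 was at least 18.05-fold lower (log2 bound −4.17, −4.37 to −2.95 over the scalings). A bound below 0 was kept under all 9 scalings. This and the other bounds are approximate, because they leave out the scanner error, which was 0.53 for this probe. The lowest signal is also not a sharp limit. On the OP50 array gcy-7 at 18.9 was not well above background, while daf-11 at 17.2 was (deposited signals). The gene gcy-3 (R134.1) had 33.5 and 3.80, the latter not well above background, and was at least 4.38-fold lower (log2 bound −2.13, −2.33 to −0.90 over the scalings). The salt receptor gene gcy-22 (T03D8.5) had 171 and 59.7, a difference of −1.52 ± 0.21 (scanner error of the probe) that stayed below 0 under every scaling (−1.72 to −0.29).

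The right-side gene gcy-5 (ZK970.6), widely used as a marker of that neuron, went the other way from gcy-4. Its scaled signal was 24.7 on the OP50 array and 32.1 on the L. sphaericus array, a difference of 0.38 ± 0.29 (0.18 to 1.61 over the scalings), which was −0.25 with normexp. Both signals lay well under the median of all genes, and the difference was within 2 scanner errors of 0. In the RefSeq gene order gcy-4 and gcy-5 are near neighbours with 5 genes between them, of which 1 is protein-coding. The genes gcy-3, gcy-2 and gcy-1 also lie side by side, with 1 gene that is not protein-coding between each, and whether their probes tell these related genes apart was not tested. On the single probe of gcy-1 (AH6.1) the scaled signals were 12.2 and 1.89, not well above background on either array.

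The left ASE neuron gave both the lowest and the highest values of the ASE genes measured on both arrays. Its sodium- and alkaline-sensing receptor gene gcy-14 (ZC412.2) had scaled signals of 146.9 and 31.999, 4.59-fold lower on the L. sphaericus array (−2.20 ± 0.22, −2.40 to −0.97 over the scalings). The gene gcy-20 (F21H7.9) had 23.8 and 9.86, a difference of −1.27 ± 0.35 (−1.47 to −0.047 over the scalings). The gene gcy-6 (B0024.6) had 12.5 and 35.3, 2.82-fold higher (1.496 ± 0.34, range 1.30 to 2.72). Its deposited OP50 signal of 18.04 was near the lowest well above background, 15.7, and with normexp its difference was −0.058. The left-side marker gene gcy-7 (F52E1.4) had 13.2 and 7.64 and was not well above background on either array.

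The AFD neurons, the main thermosensors, use 3 receptor cyclases, gcy-8, gcy-18 and gcy-23, and their differences were unlike. The scaled signal of gcy-18 (ZK896.8) was 150 on the OP50 array and 68.4 on the L. sphaericus array, 2.19-fold lower (−1.13 ± 0.21), with a range of −1.33 to 0.093 in which the sign turned without scaling. The gene gcy-23 (T26C12.4) had 35.4 and 32.6, a difference of −0.12 ± 0.26 (−0.32 to 1.105 over the scalings). The gene gcy-8 (C49H3.1) had 36.3 and 45.2, a difference of 0.32 ± 0.24 (0.12 to 1.54), which was −0.53 with normexp. Thus 1 of the 3 was past 2-fold, and the difference between gcy-18 and gcy-8 was larger than their scanner errors. With normexp the 2 genes lay closer together, gcy-18 at −1.01 and gcy-8 at −0.53.

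In the olfactory neurons AWC and AWB, odr-1 and daf-11 act downstream of the odour receptors, and daf-11 also takes part in the decision to enter the dauer stage. The scaled signals of daf-11 (B0240.3) were 11.9 and 10.01, both near the lowest well above background, with a difference of −0.25 ± 0.41 that turned sign with the scaling (−0.45 to 0.97). The gene odr-1 (R01E6.1) had 2.96 and 2.09, not well above background on either array. The array thus carried almost no measurement of this group.

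The BAG neurons sense carbon dioxide through the receptor cyclase GCY-9 and falling oxygen through the soluble cyclases GCY-31 and GCY-33. The scaled signal of gcy-9 (ZK455.2) was 15.002 on the OP50 and 23.8 on the L. sphaericus array, a difference of 0.67 ± 0.34 (0.47 to 1.89 over the scalings), which was −0.38 with normexp. The gene gcy-33 (F57F5.2) had 91.9 and 41.5, 2.22-fold lower (−1.15 ± 0.22, −1.35 to 0.078, above 0 without scaling). The gene gcy-31 (T07D1.1) had 13.7 and 14.7, a difference of 0.10 ± 0.40 (−0.10 to 1.32). The genes gcy-9 and gcy-31 were dim, with deposited OP50 signals of 21.6 and 19.8, and gcy-33 was the 1 member of these 3 past 2-fold.

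The soluble cyclases of URX, AQR and PQR, neurons that open to the body fluid and sense rising oxygen, were mostly lower. Of 4 measured, 3 passed 2-fold downward, against 32.6% of all measured genes. Their median was −2.27 (−2.47 to −1.05 over the scalings). The scaled signal of gcy-32 (C06B3.8) was 454 on the OP50 array and 52.0 on the L. sphaericus array, 8.73-fold lower (−3.13 ± 0.21, −3.33 to −1.90 over the scalings). The oxygen sensor gene gcy-36 (C46E1.2) had 366 and 61.4, 5.96-fold lower (−2.58 ± 0.21, −2.78 to −1.35). Both were lower in the deposited signals too, at 654 and 175 for gcy-32 and 527 and 207 for gcy-36.

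Of the other genes of these neurons, gcy-37 (C54E4.3) had 39.0 and 9.97, 3.91-fold lower (−1.97 ± 0.35, −2.17 to −0.74 over the scalings). The gene gcy-34 (M04G12.3) had 82.1 and 50.8, a smaller difference of −0.69 ± 0.22 that turned sign with the scaling (−0.89 to 0.53). The receptor cyclase gene gcy-25 (Y105C5B.2), known from the same neurons, was well above background on the OP50 array only on both of its probes. Its median scaled signals were 31.003 and 3.71, at least 4.05-fold lower (log2 bound −2.02, but −0.79 without scaling).

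Receptor cyclases outside these neurons held several of the largest differences, gcy-15 having the largest of the 23 measured members under the 75th percentile. The gene gcy-15 (ZC239.7), a marker of the ASG neurons, had scaled signals of 1177 and 103, 11.4-fold lower on the L. sphaericus array (−3.51 ± 0.03, SD over 2 probes). Its deposited signals were 1694 and 347, and its difference stayed between −3.71 and −2.29 over the scalings. The gene gcy-11 (C30G4.3) had 804 and 108, 7.42-fold lower (−2.89 ± 0.21, −3.09 to −1.67). The gene gcy-12 (F08B1.2), which is known to act in the control of body size, had 308 and 47.5, 6.49-fold lower (−2.70 ± 0.21, −2.90 to −1.47).

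The gene gcy-13 (F23H12.6), used as a marker of the RIM interneurons and motor neurons, was 4.78-fold lower, with scaled signals of 82.9 and 17.3. Its 2 probes disagreed in size (−2.90 and −1.61), both being lower, and the gene's difference of −2.26 ranged from −2.46 to −1.03. The gene gcy-19 (C17F4.6) had 162 and 62.4, a difference of −1.38 ± 0.21 (−1.58 to −0.15 over the scalings). The genes gcy-17 (W03F11.2) and gcy-2 (R134.2) were well above background on the OP50 array only, at least 2.98-fold and 2.74-fold lower, bounds that rest on dim scaled signals of 22.8 and 20.999. Their log2 bounds of −1.58 and −1.46 came to −0.35 and −0.23 without scaling. The gene gcy-27 (C06A12.4) was dim on both arrays, with 18.7 and 9.14 (−1.03 ± 0.38, −1.23 to 0.19, turning sign without scaling and with scaling on ciliary genes). The gene gcy-21 (F22E5.3) had 3.30 and 2.21, not well above background on either array.

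The gene gcy-28 (T01A4.1) is expressed broadly in neurons and acts in the AIA interneurons and in the axon of AWC. Its scaled signals were 278 and 198, and its 3 probes, for 2 isoforms, agreed on a small difference of −0.60 ± 0.09 (SD over 3 probes). The deposited signal was higher on the L. sphaericus array, 667 against 400, so the sign turned with the scaling (−0.80 to 0.63).

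**Figure D2:**
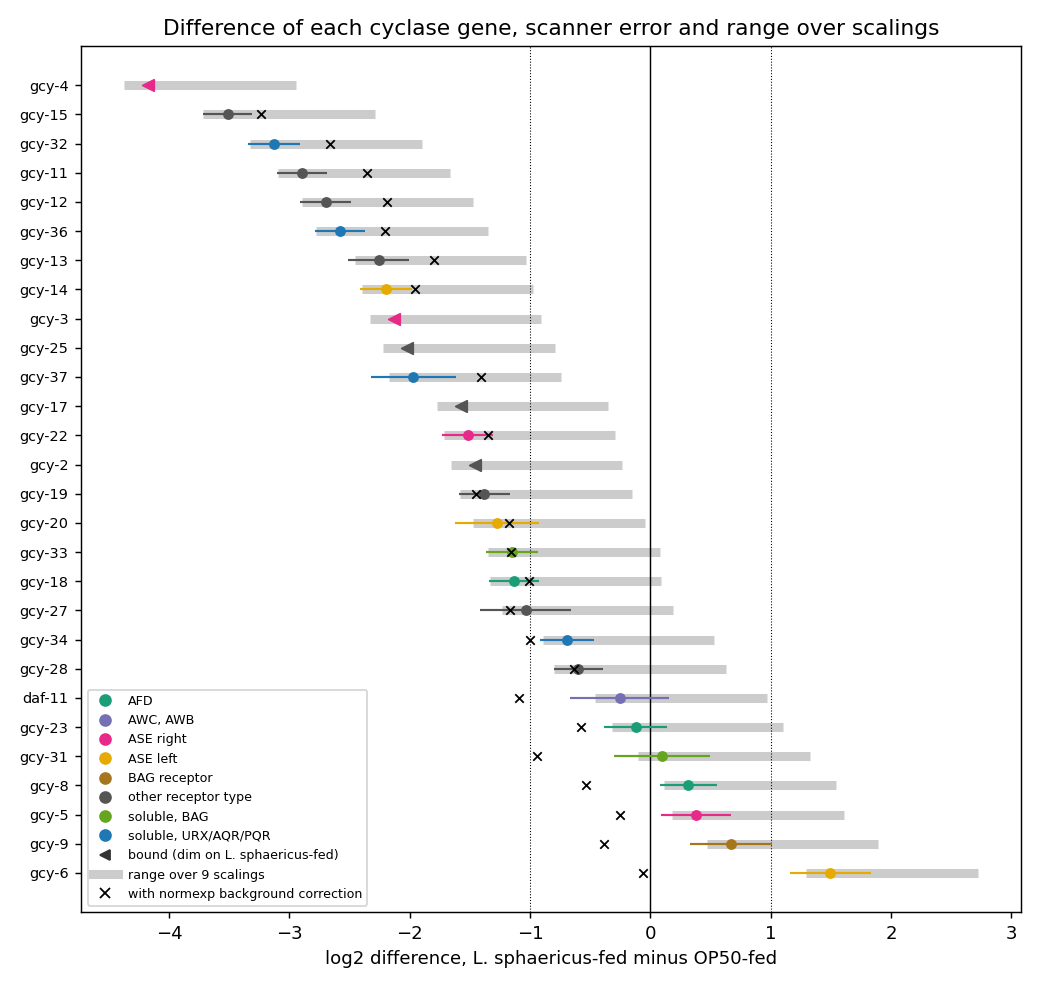
Log2 difference, L. sphaericus minus OP50, of the 23 measured cyclase genes (circles, bars show the scanner error of a probe) and bounds of 5 genes dim on the L. sphaericus array (triangles), coloured by neuron or class. Grey bars span 9 scalings, crosses show normexp background correction, and dotted lines mark 2-fold. The genes from gcy-4 to gcy-20 stay left of 0 over all scalings, while every cross, that of gcy-6 included, lies below 0. The offset of 50 used with normexp draws dim genes to values below 0.

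The members with the largest differences were among the brighter ones on the OP50 array, whose signal is itself one side of the difference. The 7 members at least 4-fold lower had deposited OP50 signals from 119 to 1694, and the 5 members above 0 had signals from 18.04 to 52.2. All 23 measured members had a mean signal under the median of all measured genes. For dim genes a large drop cannot be measured, because the lower signal falls under the background and the gene then counts among the 5 bounds. The 2-fold counts over the 23 measured members leave out these genes.

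**Figure D3:**
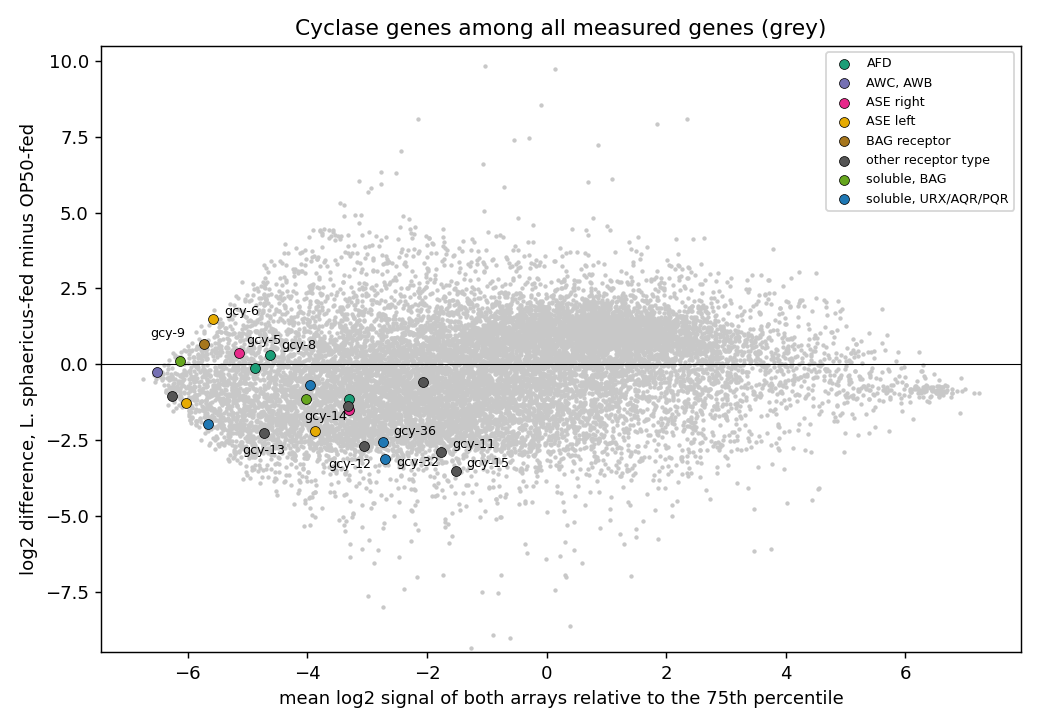
Log2 difference (75th percentile scaling) against the mean log2 signal of both arrays for 15301 measured genes (grey) and the 23 measured cyclase genes (coloured by neuron or class, named where at least 4-fold lower or above 0.25). The cyclase genes lie in the dim part of the plot, from −6.52 to −1.52, and those with the lowest differences, such as gcy-15 and gcy-32, are among the brighter ones.

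Subunits of the channels that cyclic nucleotides open were also mostly lower. Of 4 measured subunits of cyclic nucleotide-gated channels, 3 were at least 2-fold lower (median −1.14), against 32.6% of all measured genes. The subunit cng-1 was 3.39-fold lower (scaled signals 330 and 97.2, −1.96 to −0.54 over the scalings). The sensory channel subunits tax-2 and tax-4 were 2.13-fold and 1.87-fold lower, with scaled signals of 55.2 and 25.9 for tax-2 and of 29.7 and 15.9 for tax-4. Their sign turned with the scaling, as did that of cng-2. The subunit cng-2 was 2.26-fold lower, cng-3 was not well above background on either array, and for che-6 only the L. sphaericus signal was, a bound of 1.42-fold higher.

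Of 6 phosphodiesterase genes, whose enzymes break down cyclic nucleotides, 4 were at least 2-fold lower and none 2-fold higher (median −1.14). Of all measured genes, 32.6% were lower and 22.1% higher by that much. Enzymes that act on cGMP and those that act on other cyclic nucleotides were not told apart. The gene pde-4 was 4.18-fold lower (−2.06 ± 0.28, SD over 7 probes) and pde-6 3.14-fold lower (−1.65 ± 0.03, 5 probes), both below 0 under all scalings. The genes pde-1 and pde-3 were 2.22-fold and 2.18-fold lower with a sign that turned with the scaling. The genes pde-5 (−0.61) and pde-2 (0.26) were within 2-fold. The cGMP-dependent kinase gene egl-4, which acts in adaptation of sensory neurons, was at 0.020 ± 0.84 over 5 probes, and pkg-2 was at −0.79.

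Among 12 G proteins, regulators, TRPV channels and trafficking factors of sensory neurons, 5 passed 2-fold downward and 1 upward (median −0.77), not far from the 32.6% and 22.1% of all measured genes. The TRPV channel gene ocr-2 and the G alpha gene odr-3 were 3.81-fold and 3.46-fold lower, below 0 under all scalings. The gene odr-8, known to act in bringing odour receptors to the cilia, was 2.10-fold higher (1.07 ± 0.18, SD over 7 probes), above 0 under all scalings and with normexp.

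Of 13 measured transcription factors that specify these neurons, 5 were at least 2-fold lower and 1 higher, a share of lower genes near the 32.6% of all measured genes. The genes fozi-1 and ceh-14, a LIM homeobox gene of AFD, were 7.53-fold and 4.83-fold lower under the 75th percentile and stayed below 0 under all scalings. Each rests on 1 probe, with scaled L. sphaericus signals of 13.5 and 8.65, near the lowest well above background, 7.65. With normexp they were at −1.92 and −1.77. The gene die-1, which acts in the left ASE neuron, was 2.86-fold higher (1.52 ± 0.44, SD over 2 probes). The ASE selector gene che-1, named after its values were seen, was not well above background on either array.

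The cyclases were set beside lists of cell markers. Of all measured genes, 32.6% passed 2-fold downward and 22.1% upward, the shares beside which the counts below stand. Of the ciliary transport genes, 18 of 31 measured passed 2-fold downward and 0 upward (median −1.10), with a summed scaled signal of 8588 on the OP50 and 3953 on the L. sphaericus array. Of the pan-neuronal genes 8 of 17 passed 2-fold downward and 0 upward (median −0.77, summed 32764 and 28409). The single bright gene snb-1 made up 18726 and 18670 of these sums. In the oocyte and eggshell list 20 of 22 genes passed 2-fold upward and 0 downward (median 2.33, summed 86078 and 397116), and 8 of 10 germline genes were at least 2-fold higher. Tissues other than neurons were lower too, with medians of −1.09 over 6 pharynx genes (3 past 2-fold downward), −1.03 over 9 intestine genes (5 downward, 1 upward) and −0.48 over 10 body wall muscle genes (0 past 2-fold). The epidermis list had a median of 0.50. The part of these shifts in the differences of the cyclases was not tested.

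Relative to the ciliary transport genes, the cyclases spread to both sides. When the arrays were scaled on that list, the median of the 23 members was −0.029, with 7 at least 2-fold lower and 5 at least 2-fold higher, against 13.1% and 48.2% of all measured genes. The 7 were gcy-11, gcy-12, gcy-13, gcy-14, gcy-15, gcy-32 and gcy-36, and the 5 were gcy-5, gcy-6, gcy-8, gcy-9 and gcy-31. These 5 were dim, with deposited OP50 signals from 18.04 to 52.2, where the lowest signal well above background was 15.7. Across genes the differences had an SD of 1.33 for the cyclases and 0.71 for the ciliary list, against 1.61 over all 15301 measured genes. The cyclases thus spread less than all measured genes. Over repeated spots of a probe the SD was 0.15 (33 probes). The scanner errors of the measured members ranged from 0.20 to 0.41. Relative to the pan-neuronal list the median of the cyclases was −0.41.

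**Figure D4:**
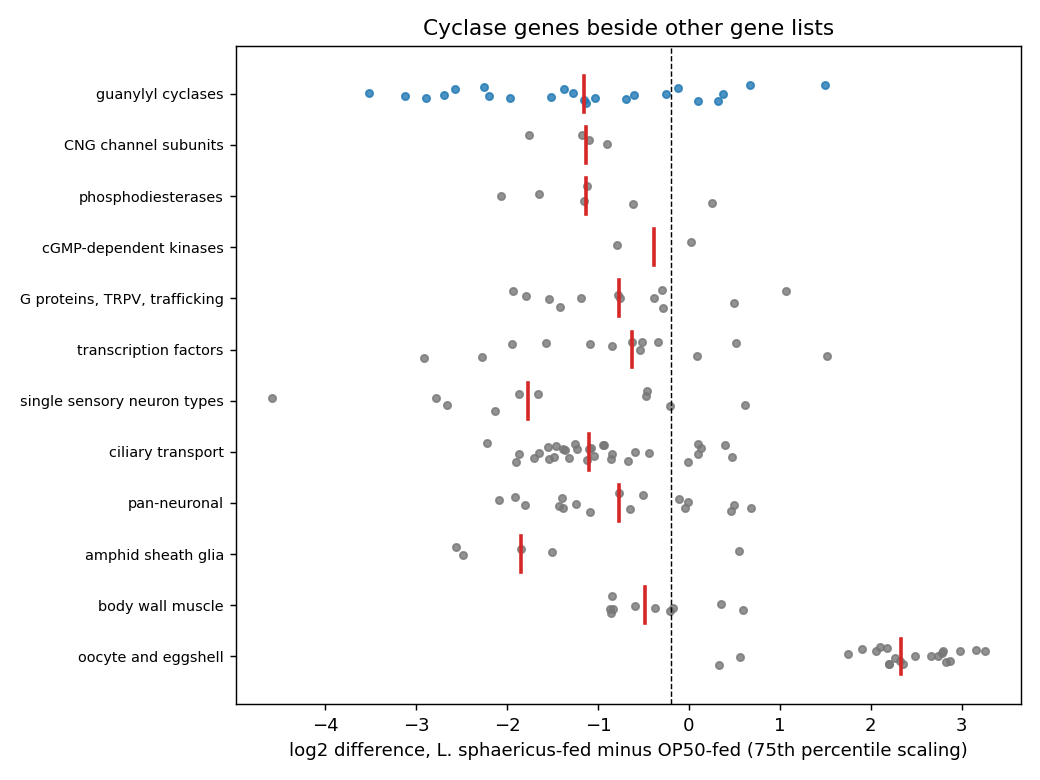
Log2 difference, L. sphaericus minus OP50, with 75th percentile scaling, of each measured gene of the cyclase set (blue) and of 11 other lists (grey), with the median of each list as a red bar and the median of all measured genes (−0.20) as a dashed line. The cyclases reach from −3.51 to 1.496 and the ciliary genes from −2.22 to 0.47, with close medians, and the oocyte list lies on the other side of 0.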

How the data were processed

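Per the file headers, each array was scanned and read with Agilent Feature Extraction 11.0.1.1, and the authors deposited its spot table with the processed signal, a background-subtracted intensity, its error and the quality flags. Both arrays lay on the same slide. The series table that the authors deposited holds the same intensity without scaling: it matched within 0.01 log2 units for 43559 (OP50) and 43562 (L. sphaericus) of 43579 probes. The number of arrays limits the precision.

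Control spots and 36 outlier spots were left out, and no spot was saturated. The log2 signal was averaged over the spots of a probe, and the 75th percentile of the array was subtracted. Probes were named by sequence name or RefSeq accession through a gene table of assembly WBcel235, which named 34298 of 43579. The array design cites build ce4, so no coordinates are printed. Genes take the median of their measured probes. With a dim L. sphaericus signal, a bound was computed against that signal or the array's lowest signal well above background, whichever was higher. Scanner error is the software's error carried to the log2 difference of a probe.

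The members, lists and naming rule (every member, all of lists up to 8 genes, and the 2 furthest past 2-fold in each direction of longer ones) were chosen with earlier results of these data known. Of the list names, 2 were not in the gene table. A planned promoter motif search was not run. The computations were tested on simulated data. Software was Python 3.11.15, statsmodels 0.14.6 and limma 3.58.1. The alternatives were normexp on the median signals (offset 50), other scalings, filters on dim probes, the mean or brightest probe, the series table and thresholds of 1.5-fold and 3-fold. Scaling on ciliary genes was added after seeing the data.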

Additional observations from a re-analysis of the deposited data

How the results depend on the processing

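With 1 array per diet no replicate could be left out, and no paired analysis was possible because each group has 1 sample. The number of members at least 2-fold lower (14) was 8 with the median of all probes, quantile normalization, loess centring, ribosomal protein genes, pan-neuronal genes or a 3-fold threshold, 7 with ciliary transport genes, 6 with no scaling and 4 with bright probes only (mean signal at least the median), which left 5 members. The number at least 2-fold higher (1) was 0 with normexp, bright probes only or a 3-fold threshold, 2 at 1.5-fold, 3 with the median of all probes or quantile normalization, 4 with loess centring, ribosomal protein genes or pan-neuronal genes, 5 with ciliary transport genes and 6 with no scaling. The 5 lower bounds past 2-fold became 3 with the median of all probes, quantile normalization, loess centring, ribosomal protein genes, pan-neuronal genes or a 3-fold threshold, 2 with ciliary transport genes and 1 with no scaling. The median of the members (−1.15) was −1.35 with the 75th percentile of detected probes, −1.33 with no filter on dim probes, −0.50 with the median of all probes and −0.47 with quantile normalization, −0.38 after loess centring, −0.28 with ribosomal protein genes, −0.41 with pan-neuronal genes, −0.029 with ciliary transport genes, 0.078 with no scaling and −2.89 with bright probes only. Relative to all genes it was −0.95, and it became −0.57 after quantile normalization, −0.47 after loess centring and −2.94 with bright probes only. Among genes past 2-fold, gcy-6 turned to −0.058 with normexp, gcy-18, gcy-27 and gcy-33 to 0.093, 0.19 and 0.078 with no scaling, and gcy-27 to 0.084 with ciliary transport genes. Of 304 recomputed gene differences, 126 stayed within the technical error and 178 moved beyond it. Most of the 126 are no check of stability. No filter on dim probes, the mean over probes and the series table gave 23 each, and the brightest probe 22. These settings change little or nothing for the 20 measured members with 1 probe. The 75th percentile of detected probes gave 23 and moves all genes by the same small amount, and normexp gave 7. The sign changed in 36 of the 304, of which 5 were past 2-fold before. Most members rest on 1 probe (28 of 32), and dim members have the least precise values.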

Other observations

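Markers of single sensory neuron types that are not cyclases also differed widely. Of 23, 10 were measured on both arrays, with 6 past 2-fold downward on L. sphaericus and 0 upward, against 32.6% and 22.1% of all measured genes. A further 9 were not well above background on either. For 2 only the OP50 signal was well above background, against 4.21% of all genes with a probe. For 2 (odr-7 and tph-1, named after their values were seen) only the L. sphaericus signal was, against 4.08%. Neither shows a clear difference, as odr-7 gave no bound and the bound of tph-1 was 1.15-fold higher. The median of the 10 was −1.77 (−1.97 to −0.54 over the scalings). The diacetyl receptor gene odr-10 of the AWA neurons had scaled signals of 658 and 27.5, 23.98-fold lower on L. sphaericus (−4.78 to −3.36 over the scalings). The neuropeptide gene flp-19 was 6.85-fold lower, with 5191 and 758.

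Of 5 measured genes of the amphid sheath glia, which wrap the endings of these sensory neurons, 4 passed 2-fold downward. The share of all measured genes was 32.6%, and the median of the 5 was −1.84. The gene fig-1 had scaled signals of 1453 and 260, 5.59-fold lower. The transporter gene kcc-3, whose product in the glia is known to act on GCY-8 of the AFD neuron, was 2.83-fold lower, with scaled signals of 516 and 182. Both stayed below 0 under the 9 scalings, while daf-6 of the same list was at 0.55. The link of these values to the cyclase genes was not tested.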
